A study of Mus musculus with 8 samples.

Results

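The liver miRNA miR-122 is described here through both strands of its hairpin, miR-122-5p and miR-122-3p, which are 2 of the 862 miRNA names listed in 8 small RNA libraries of mouse liver. They were found in the tables by name, and both were listed in all 8 libraries and passed the filter on low values. The mice were male wild-type C57BL/6J animals, housed singly, that were 8 weeks old at the start and ate either freely (AL, ad libitum) or a calorie-restricted diet (CR) for 12 weeks. The CR ration was cut by 20% in the first week and by 40% in the remaining 11 weeks. Each diet had 1 library of whole liver, made from a pool of 3 RNA samples in equal amounts, and liver mitochondria, purified to mitoplasts by differential centrifugation, had 3 libraries per diet. Nothing in the labels ties the mitochondrial replicates to separate animals, and the p-values therefore speak only for the scatter of these libraries, which may be technical. The tables list miRNAs only, so how pure the mitochondria were was not tested. In such bulk material fewer cells of a type and less RNA per cell cannot be told apart.

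A miRNA hairpin is cut by Drosha and Dicer into a short duplex, of which one strand is usually kept by an Argonaute protein as the guide and the other is mostly degraded. For miR-122 the guide is the 5p strand, and the 3p strand is the passenger. miR-122 is made almost only in hepatocytes, where it is the most abundant miRNA, depends on liver transcription factors such as HNF4A, and is known for its part in cholesterol and lipid metabolism and for repressing genes such as Slc7a1, an amino acid transporter, and Aldoa, a glycolytic enzyme.

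A list of other miRNAs abundant in hepatocytes serves as a yardstick for miR-122, although several of them are made in other cells too. Of that list, 5 abundant guide strands with mature sequences in RefSeq (GRCm38.p6), each identical to the deposited one, are shown here because the results set their levels against those of miR-122. RPM stands for reads per 1000000 miRNA reads of a library. Seeds are in capitals, and no pair of these strands has an identical seed. Those of miR-101a-3p and miR-101b-3p overlap, being offset stretches of largely the same sequence.
miR-148a-3p: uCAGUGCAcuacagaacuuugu
miR-192-5p: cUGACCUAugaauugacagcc
miR-101b-3p: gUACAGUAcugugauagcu
miR-101a-3p: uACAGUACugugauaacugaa
miR-194-5p: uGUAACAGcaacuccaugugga
Of these, miR-148a-3p lies at chr6:51269829-51269850 (minus strand), miR-101a-3p at chr4:101346957-101346977 (minus strand) and miR-101b-3p at chr19:29135338-29135356 (plus strand). miR-192-5p (chr19:6264857-6264877) and one copy of miR-194-5p (chr19:6264658-6264679) lie close together on the plus strand, and the other copy of miR-194-5p lies at chr1:185313325-185313346 (plus strand).

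The single Mir122 hairpin is annotated on chromosome 18 at 65248861 to 65248926 on the plus strand (GRCm38, GENCODE M21), within an exon of the long non-coding RNA gene AC157910.3 (65244287 to 65252621, plus strand). The deposited sequences are 22 bases long for the 5p strand and 20 bases for the 3p strand. No other listed name lay within 4 edits of either strand: the closest differed from miR-122-5p by 5 edits and from miR-122-3p by 8. The seed, bases 2 to 8, which pairs with target mRNAs, was shared by miR-122-5p with 1 other name, the unannotated candidate novel_344, which had 5 reads in all over 3 libraries. No other name had the seed of miR-122-3p.

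The libraries held 1070762 to 3242002 miRNA reads, and 1 read was worth 0.308 to 0.934 RPM. Counting error was therefore small beside the differences between libraries: for miR-122-5p the counting CV was 0.125% to 0.159% per mitochondrial library, and for miR-122-3p 3.30% to 4.72%. Intervals and counting errors cover the reads only. CR mitochondrial replicate 2 stood apart from the other mitochondrial libraries in its miR-122 level, and it also held 98.9 RPM of the 5 pancreas marker names, 1 of them at 0, against 2.11 to 6.99 RPM in the other 7 libraries. The pancreas names behind that sum were miR-375-3p and miR-217-5p, and miR-216b-3p was at 0. Leukocyte and Kupffer cell names (11, of which 1 to 3 were at 0 in a library, all of them passenger strands) summed to 1200 RPM in the AL pool, 837 RPM in the CR pool, 8263 to 11395 RPM in AL mitochondria and 3097 to 5108 RPM in CR mitochondria, mostly as miR-146a-5p. Stellate cell and fibroblast names (9, none at 0) reached 25661 to 47454 RPM in mitochondria, mostly as miR-143-3p, against 14709 and 15881 RPM in whole liver. Endothelial names (both listed throughout) lay between 6694 and 9437 RPM in mitochondria, apart from CR replicate 2 at 18066 RPM, against 19607 and 14978 RPM in whole liver. Their part in the miR-122 levels was not tested.

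miR-122-5p was the most abundant miRNA in all 8 libraries. In whole liver it stood at 254251 RPM in the AL pool and 262739 RPM in the CR pool. In AL mitochondria it stood at 378919, 452582 and 415831 RPM, and in CR mitochondria at 532327, 251755 and 580803 RPM. The pools were almost equal, 5 of the 6 mitochondrial libraries lay above both pools, and CR mitochondrial replicate 2 lay just below both. Of all tested miRNAs 14.9% had all 6 mitochondrial libraries above both pools, and miR-122-5p was not among them. The share with at least 5 of the 6 above was not counted. The lead of miR-122-5p over the next miRNA was small in the pools, 1.33-fold over miR-21a-5p under AL and 1.31-fold over miR-148a-3p under CR. In mitochondria the lead was 3.36-, 6.26- and 3.26-fold under AL and 5.20-, 1.43- and 6.81-fold under CR.

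The passenger strand was far rarer. In the AL pool miR-122-3p had 1864 reads, or 767 RPM, and in the CR pool it had 2430 reads, or 750 RPM. In AL mitochondria it stood at 691, 410 and 644 RPM, and in CR mitochondria at 528, 576 and 448 RPM. All 6 mitochondrial libraries thus lay below both pools, as did 27.1% of the 417 miRNAs tested. Its rank stayed between 47 and 56 in each library.

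Because miR-122 takes so many of the reads, its own level presses on the scale on which every miRNA is given. Both strands together took 25.5% of the reads of the AL pool (95% Clopper-Pearson interval 25.4% to 25.6%) and between 25.2% and 58.1% in single mitochondrial libraries. Scaled to the reads that remain without miR-122, any other miRNA therefore stood at 1.34 times its RPM in CR mitochondrial replicate 2 and 2.39 times in CR mitochondrial replicate 3. Set against the other miRNA reads alone, miR-122-5p had 0.341 and 0.357 reads per other read in the AL and CR pools. In AL mitochondria the values were 0.611, 0.827 and 0.713, and in CR mitochondria 1.14, 0.337 and 1.39. On the same footing the passenger strand hardly separated the fractions: miR-122-3p had 1029 and 1018 reads per 1000000 other reads in the pools and 990 ± 179 (SD, n = 6) in mitochondria. The CV over the 6 mitochondrial libraries was 45.1% for the 5p strand and 18.1% for the 3p strand.

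**Figure D1:**
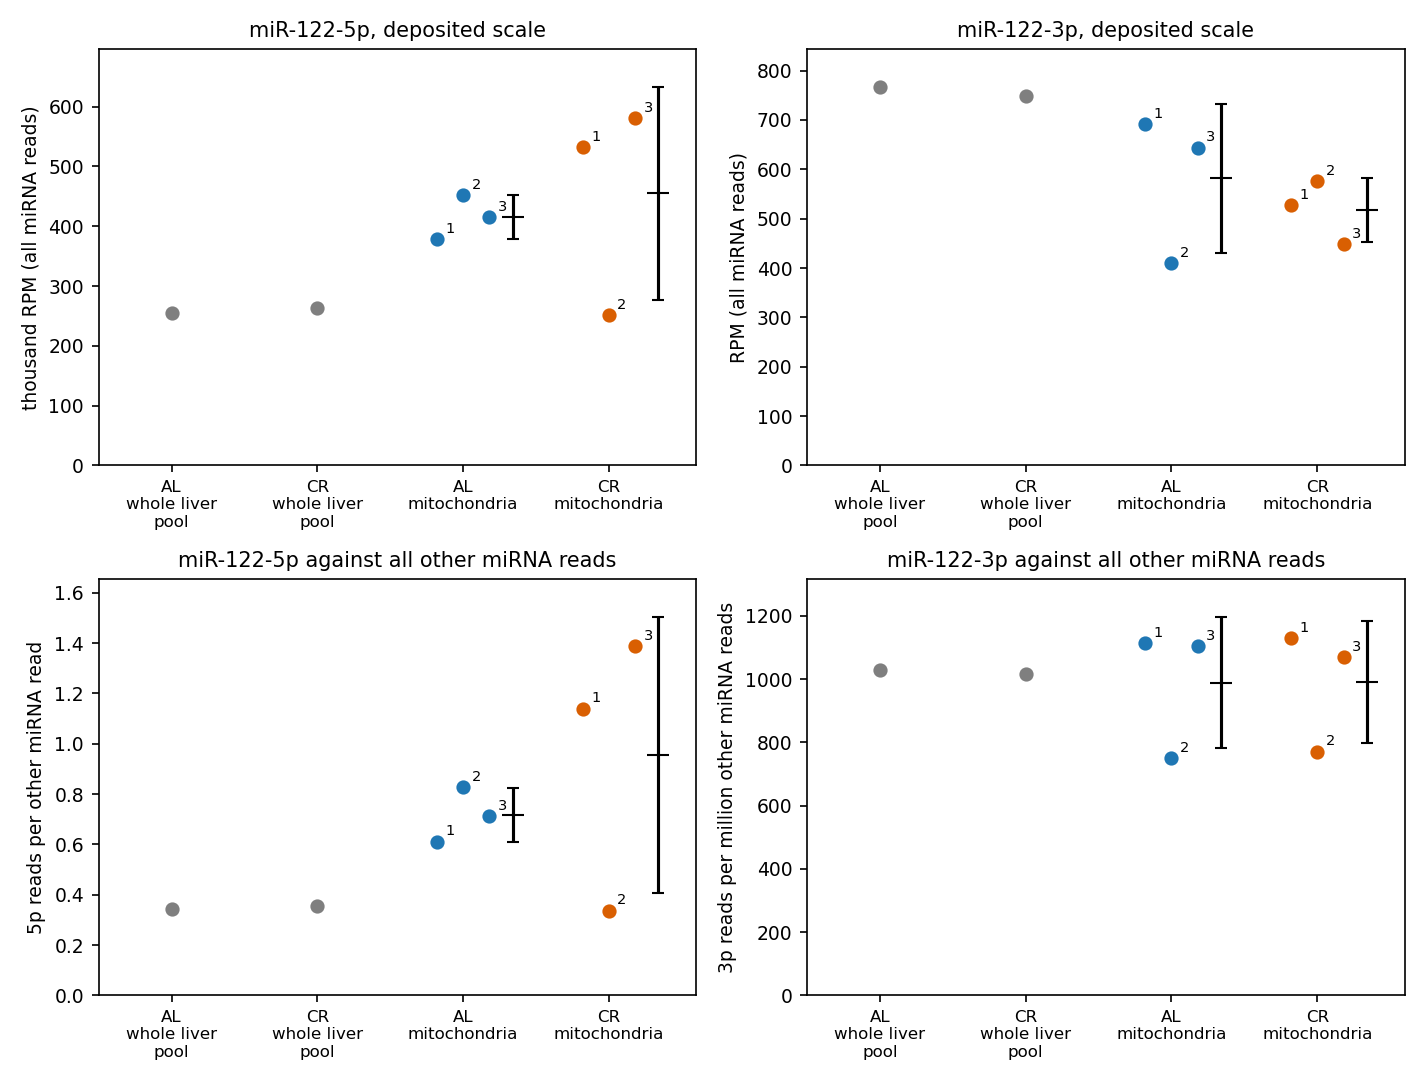
Levels of miR-122-5p (left) and miR-122-3p (right) in each of the 8 libraries, in RPM (top) and against all other miRNA reads (bottom). Each dot is a library, small numbers are replicates, and black bars are the mean ± SD of 3 libraries. The 5p strand of CR mitochondrial replicate 2 sits with the pools at 251755 RPM while the 3p strand per 1000000 other reads lies at 1029 and 1018 in the pools and on both sides of them in mitochondria.

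Mitochondria were compared with whole liver to ask which miRNAs are enriched in the organelle preparation. On log2(RPM + 1), with diet as a term, miR-122-5p had a fold of 1.63 in mitochondria, a log2 fold change of 0.70 (SE 0.46, 95% interval -0.25 to 1.66) that did not pass limma's test (adjusted p = 0.251). miR-122-3p had a log2 fold change of -0.49 (SE 0.31, 95% interval -1.14 to 0.17, adjusted p = 0.246 by limma) and did not pass either. In the same fit 32.1% of the 417 tested miRNAs passed, 44 higher and 90 lower in mitochondria, with a median log2 fold change of -0.31 over all of them. The fit assumes that the 2 pools vary like the mitochondrial libraries, since neither diet has a second pool.

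The call on miR-122-5p turned on 1 library, on the scale and on the model. Without CR mitochondrial replicate 2 the log2 fold change was 0.88 and passed (adjusted p = 0.00733 by limma). That library stood out by the very value tested and was the only mitochondrial one below the pools. Leaving it out therefore puts the 5 remaining ones above both pools by construction, and the fit shows only how far the call hangs on it. With all 8 libraries kept, it did not pass with TMM factors (1.0, adjusted p = 0.0830 by limma) or DESeq2 size factors (1.01, adjusted p = 0.0796 by limma). On the recovered reads it passed in edgeR with TMM factors (1.21, adjusted p = 0.0308 by edgeR) and in DESeq2 (1.09, adjusted p = 0.0172 by DESeq2). Scaled to the other miRNA reads the log2 fold change of miR-122-5p was 1.12 (SE 0.41, adjusted p = 0.0401 by limma), and that of miR-122-3p was -0.07 (adjusted p = 0.897 by limma). On that scale the median of all tested miRNAs was -0.02, with 66 higher and 63 lower. By diet, the difference of miR-122-5p from its own pool was 0.71 under AL and 0.70 under CR, each with an SE of 0.72, and their difference, the diet by fraction interaction, was -0.0053 (SE 1.02, 95% interval -2.16 to 2.15, adjusted p = 0.998 by limma). In that interaction 0% of the miRNAs passed, 5 had an unadjusted p under 0.05, and edgeR and DESeq2 each called 0. For miR-122-3p the interaction was -0.11 (SE 0.66, adjusted p = 0.998 by limma). The CR value of miR-122-5p is a mean over 2 high libraries and 1 low one.

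The ratio of the strands does not depend on how a library is scaled, apart from the 1 RPM added for the test. For each read of miR-122-3p there were 332 and 351 reads of miR-122-5p in the AL and CR pools. In AL mitochondria there were 548, 1104 and 646, and in CR mitochondria 1008, 437 and 1296. All 6 mitochondrial libraries lay above both pools, including CR replicate 2, the lowest of the 6. The passenger strand made up 0.301% of miR-122 reads in the AL pool (95% Clopper-Pearson interval 0.287% to 0.315%) and 0.0771% in CR mitochondrial replicate 3 (0.0704% to 0.0843%).

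In log2 units the arm ratio was 1.19 higher in mitochondria (SE 0.45, 95% interval 0.19 to 2.19), a 2.28-fold difference that missed the threshold over the 111 hairpins with both arms tested (unadjusted p = 0.0240, adjusted p = 0.0620 by limma). Without CR mitochondrial replicate 2 it was 1.41 (adjusted p = 0.0136), without AL mitochondrial replicate 1 it was 1.29 (adjusted p = 0.0493), and without AL mitochondrial replicate 2 it was 1.05 (adjusted p = 0.0390). It did not pass without any of the other 5 libraries, at adjusted p of 0.0902 without AL mitochondrial replicate 3, 0.109 and 0.0846 without CR mitochondrial replicates 1 and 3, and 0.238 and 0.244 without the AL and CR pool (all by limma). Of these hairpins 36.9% passed, 14.4% with a higher 5p share in mitochondria and 22.5% with a lower one, and 20.7% had all 6 mitochondrial libraries above both pools, against 26.1% with all 6 below.

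Among the 111 hairpins miR-122 stood at place 4 in the order of the mean 5p over 3p ratio over all 8 libraries, at 9.30 in log2 units. Its place was 10 in the pools, at 8.41, and 3 in mitochondria, at 9.60. Above it over all 8 libraries were miR-21a (12.75), a miRNA induced in injured and proliferating tissue, miR-146a (10.67), which dampens NF-kappaB signalling, and let-7g (10.09). Below it were miR-192 (9.23), miR-26b (8.73) and let-7i (8.53). For its nearest neighbour miR-192 the difference had the opposite sign: the ratio of that hairpin fell in mitochondria by 3.81 in log2 units (adjusted p = 4.07e-05 by limma), from 11.77 and 12.40 in the pools to between 7.97 and 8.76 in mitochondria. That of let-7g fell too (-5.77, adjusted p = 0.000119 by limma), and that of miR-146a rose (2.75, adjusted p = 0.0107 by limma). miR-21a, miR-26b and let-7i did not pass. The place of miR-122 depends on such shifts of other hairpins too.

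**Figure D2:**
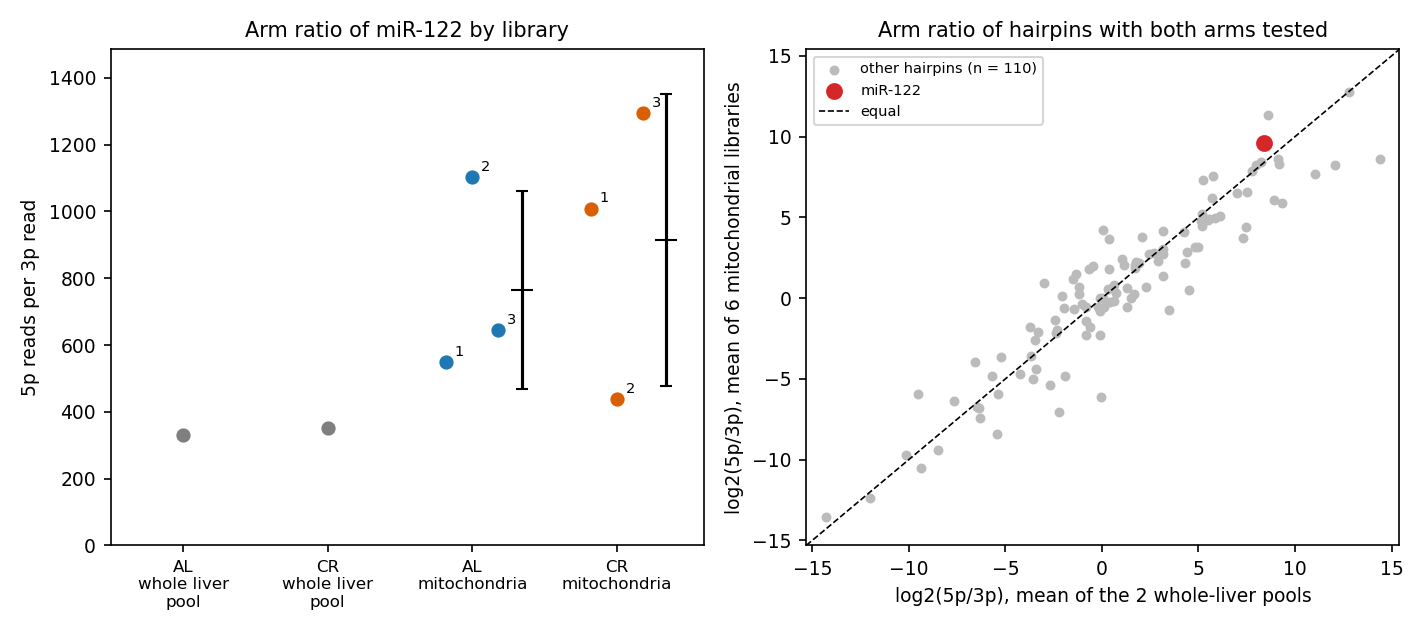
Left, reads of miR-122-5p per read of miR-122-3p in each library, with the mean ± SD of 3 libraries. Right, log2(5p/3p) of 111 hairpins, the mean of the pools on the x axis and the mean of the 6 mitochondrial libraries on the y axis, with miR-122 in red above the line of equality.

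Diet was compared within mitochondria, the only fraction with replicates. The mean level of miR-122-5p was 415777 ± 36831 RPM (SD, n = 3) in the AL libraries and 454962 ± 177644 RPM (SD, n = 3) in the CR libraries, with the CR libraries on both sides of the AL libraries. The log2 fold change was 0.042 (SE 0.50, adjusted p = 0.983 by limma), and its 95% interval ran from 0.493-fold to 2.15-fold. For miR-122-3p the means were 582 ± 151 RPM in AL and 517 ± 64.6 RPM in CR mitochondria (SD, n = 3 each), a log2 fold change of -0.14 (95% interval -0.83 to 0.55, adjusted p = 0.905 by limma), with overlapping libraries. Its sign depended on the scale, at 0.075 with TMM factors. Of the 391 miRNAs tested 0.512% passed, 1 higher and 1 lower (4 and 1 with TMM factors), and in 19.4% the libraries of the diets did not overlap.

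The CR libraries of miR-122-5p were spread widely through 1 library. On the log2 scale its SD was 0.13 among the 3 AL libraries and 0.66 among the 3 CR libraries, but 0.089 between CR replicates 1 and 3 alone. Of the 101 tested miRNAs above 100 RPM on average in mitochondria, 87 had a larger SD than miR-122-5p under AL and 17 had a larger one under CR. These counts are not like for like, since miR-122-5p makes up much of the total by which its RPM is divided. Its CV was 8.86% under AL and 39.0% under CR in RPM, and 15.1% and 57.5% against the other miRNA reads. CR replicate 2 stood at 0.452 times the mean of the other CR libraries. The difference in spread itself was not tested. For miR-122-3p the SD was 0.41 under AL and 0.18 under CR, and 0.17 without CR replicate 2.

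Without CR mitochondrial replicate 2, the only CR library below the AL libraries, the log2 fold change of miR-122-5p was 0.42 (adjusted p = 0.307 by limma). Both remaining CR libraries then lay above all AL libraries, which follows from the choice of the library left out. How many of all tested miRNAs separate in that setting was not counted. Without CR mitochondrial replicate 3 the log2 fold change was -0.18. The arm ratio did not pass with diet either, at 0.18 in log2 units (SE 0.46, 95% interval -0.79 to 1.16, adjusted p = 0.867 by limma), where 0% of 102 hairpins passed and 9 had an unadjusted p under 0.05.

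In whole liver the pools differed little. miR-122-5p was 1.03-fold higher in the CR pool (95% exact interval of the reads 1.030 to 1.037) and miR-122-3p stood at 0.978 times its AL level (0.920 to 1.04). Among the 243 names that reached 10 RPM in either pool, 42 lay within 1.1-fold, and the median ratio was 0.860. With 1 pool per diet this compares 2 libraries and not the diets.

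The other hepatocyte miRNAs differed between the fractions in both directions. Of the 24 other names on that list, 22 could be tested. In mitochondria against whole liver 4 of the 22 were higher and 7 lower, beside 10.6% higher and 21.6% lower among all tested miRNAs, and their median log2 fold change was -0.45. That median was -0.17 with TMM factors, -0.15 with DESeq2 size factors and -0.046 scaled to the other reads. Without CR mitochondrial replicate 2 the 11 names were called again, with 5 higher and 8 lower in all. With TMM factors, DESeq2 size factors or scaling to the other reads the 11 called names were called in the same direction, with 2, 2 and 3 further names higher. The highest of the abundant ones were miR-193a-3p (log2 fold change 3.15, SE 0.34), miR-192-3p (3.08, SE 0.35), the passenger strand of miR-192, and miR-378a-3p (2.14, SE 0.41), made from an intron of Ppargc1b and close in sequence to other miR-378 names. Below whole liver were miR-365-3p (-2.87, SE 0.45), miR-455-3p (-1.78, SE 0.39), miR-148a-5p (-1.64, SE 0.39) and miR-455-5p (-1.50, SE 0.40), with adjusted p of 0.00690 or less by limma for all 7. Abundant here means a mean of at least 100 RPM over the 8 libraries. miR-193a-3p (13.6 and 16.3 RPM in the AL and CR pools) and miR-192-3p (21.0 and 12.0 RPM) reached that mean only through mitochondria. miR-365-3p, miR-455-3p and miR-148a-5p reached it only through the pools. The cut thus favours names that differ between the fractions.

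The abundant guide strands shown above did not pass on the deposited scale with all 8 libraries, although miR-192-5p was called lower without CR mitochondrial replicate 2. They are not all of the abundant strands: miR-378a-3p, not shown, did pass (2.14, adjusted p = 0.000609 by limma). Its mean of 19334 RPM over the 8 libraries was above those of miR-101a-3p (18492 RPM) and miR-194-5p (17212 RPM). The log2 fold changes of the strands shown were 0.77 for miR-101a-3p, 0.67 for miR-101b-3p, -0.46 for miR-148a-3p, -0.47 for miR-194-5p and -0.73 for miR-192-5p in mitochondria, with adjusted p from 0.127 to 0.418 by limma. Both miR-101 strands, known for targeting Ezh2, were called higher with each of the other 3 scalings. miR-802-5p, known to be raised in obese liver, had 0.51 (adjusted p = 0.478). With diet in mitochondria 1 of the 22 passed, miR-802-5p (2.97, SE 0.51, adjusted p = 0.00768 by limma), beside 0.256% higher among all miRNAs. Both miR-802 strands passed with each of the other 3 scalings. The call on miR-802-5p was lost without AL mitochondrial replicate 2 (adjusted p = 0.133 by limma), CR mitochondrial replicate 1 (0.118) or CR mitochondrial replicate 2 (0.0714), where its log2 fold change was 2.82, 2.85 and 2.81. The median of the 22 was 0.032, beside -0.17 over all 391 miRNAs, and 0.19 to 0.20 with the other 3 scalings.

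**Figure D3:**
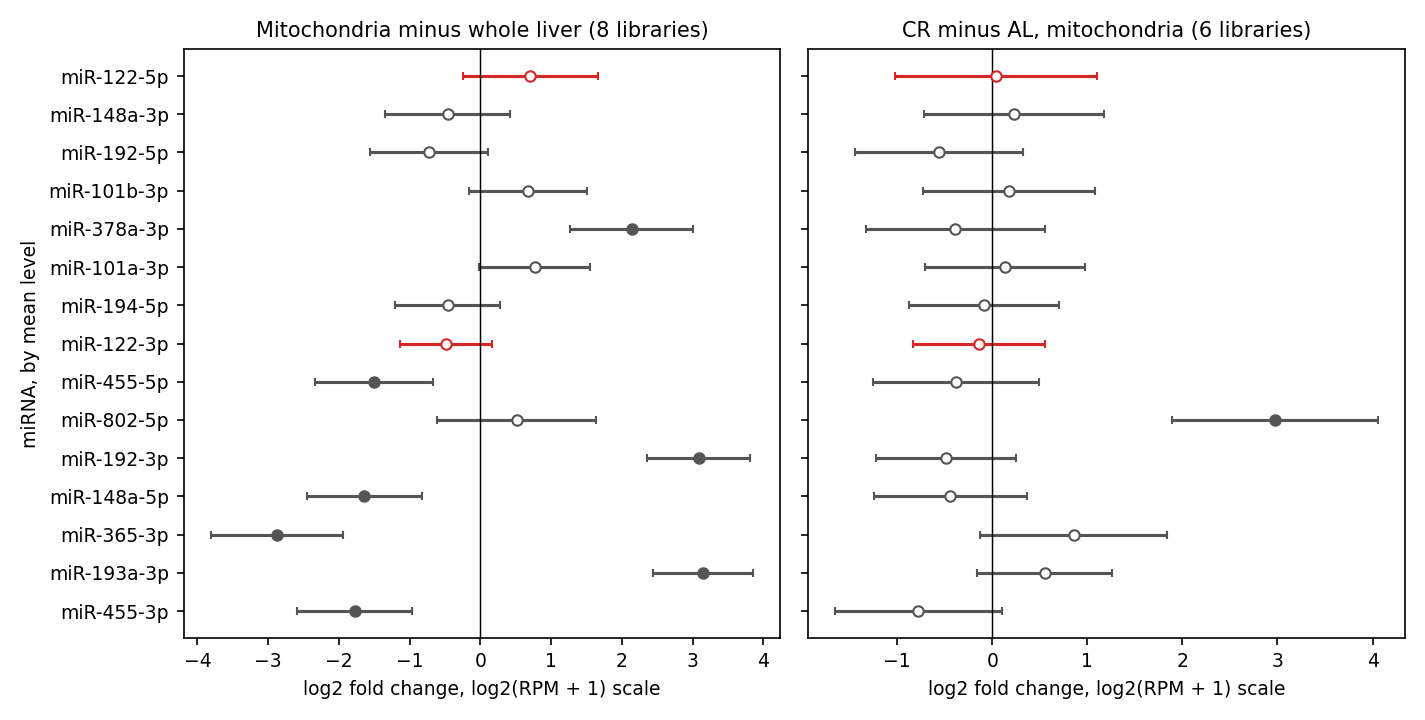
Log2 fold changes on log2(RPM + 1) with 95% intervals for both miR-122 strands (red) and the 13 other hepatocyte-list names with a mean of at least 100 RPM, mitochondria minus whole liver (left) and CR minus AL in mitochondria (right). Filled circles have an adjusted p under 0.05 by limma. Both miR-122 strands are open in both panels, with opposite signs on the left.

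The share of the other hepatocyte miRNAs was highest in the mitochondrial library with the lowest miR-122 share. The other hepatocyte miRNAs took 25.2% and 33.3% of the reads in the AL and CR pools. In AL mitochondria they took 24.5%, 24.6% and 27.7%, and in CR mitochondria 20.8%, 39.5% and 19.3%. Both kinds together took 50.7% and 59.6% of the pools and 62.5% to 77.4% of the mitochondrial libraries, and CR mitochondrial replicate 2 lay inside that range at 64.7%. Shares within a library compete, so a low miR-122 share alone raises the share of every other miRNA. Of the reads without miR-122, the other hepatocyte miRNAs took 52.8% in CR mitochondrial replicate 2. They took 44.5% and 46.1% in CR replicates 1 and 3, and 39.5%, 45.0% and 47.4% in AL mitochondria. In the AL and CR pools the values were 33.8% and 45.2%. The miR-122 share itself was 3.91 points higher on average in CR than in AL mitochondria (exact permutation p = 0.8). Without CR replicate 2 the share was 14.1 points higher in CR (exact permutation p = 0.2). Both remaining CR libraries lay above all AL libraries there, which follows from the choice of the library left out. The exact permutation test cannot go below 0.2 with 2 against 3 libraries, so it cannot decide whether the share differed there.

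In CR mitochondrial replicate 2, miR-148a-3p, which targets DNA methyltransferases and was the second most abundant miRNA there, stood at 176362 RPM against 102379 and 85292 RPM in CR replicates 1 and 3. miR-101b-3p stood at 74664 RPM against 28950 and 31567 RPM, and miR-192-5p at 61871 RPM against 31740 and 24869 RPM. Outside the list, miR-30a-5p stood at 75494 RPM against 26411 and 30542 RPM. The differences from the mean of CR replicates 1 and 3, of 4.44 (miR-101b-3p), 3.36 (miR-192-5p), 4.70 (miR-30a-5p) and 8.25 (miR-148a-3p) percentage points, stand beside a value for miR-122-5p of -30.5 points. Reads other than miR-122 made up 74.8% of CR mitochondrial replicate 2, and 46.7% and 41.9% of CR replicates 1 and 3. A miRNA with an unchanged share of those reads would thus also have more RPM in CR replicate 2. Relative to the mean of CR replicates 1 and 3, RPM were 1.88-fold for miR-148a-3p, 2.47-fold for miR-101b-3p, 2.19-fold for miR-192-5p and 2.65-fold for miR-30a-5p. The miRNAs of this comparison were chosen after their values were seen.

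For each read of the other hepatocyte miRNAs there were 1.01 and 0.792 reads of miR-122 in the AL and CR pools. In AL mitochondria there were 1.55, 1.84 and 1.51, and in CR mitochondria 2.56, 0.639 and 3.01. The mean log2 ratio was 0.70 ± 0.16 (SD, n = 3) under AL and 0.77 ± 1.23 (SD, n = 3) under CR, a difference of 0.067. The exact permutation test, two-sided, gave p = 1, and 3 against 3 libraries cannot go below 0.1. Without CR mitochondrial replicate 2 the difference was 0.77 (exact permutation p = 0.2). With 2 against 3 libraries the exact permutation test cannot go below 0.2, so it cannot decide whether the ratio differed there.

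**Figure D4:**
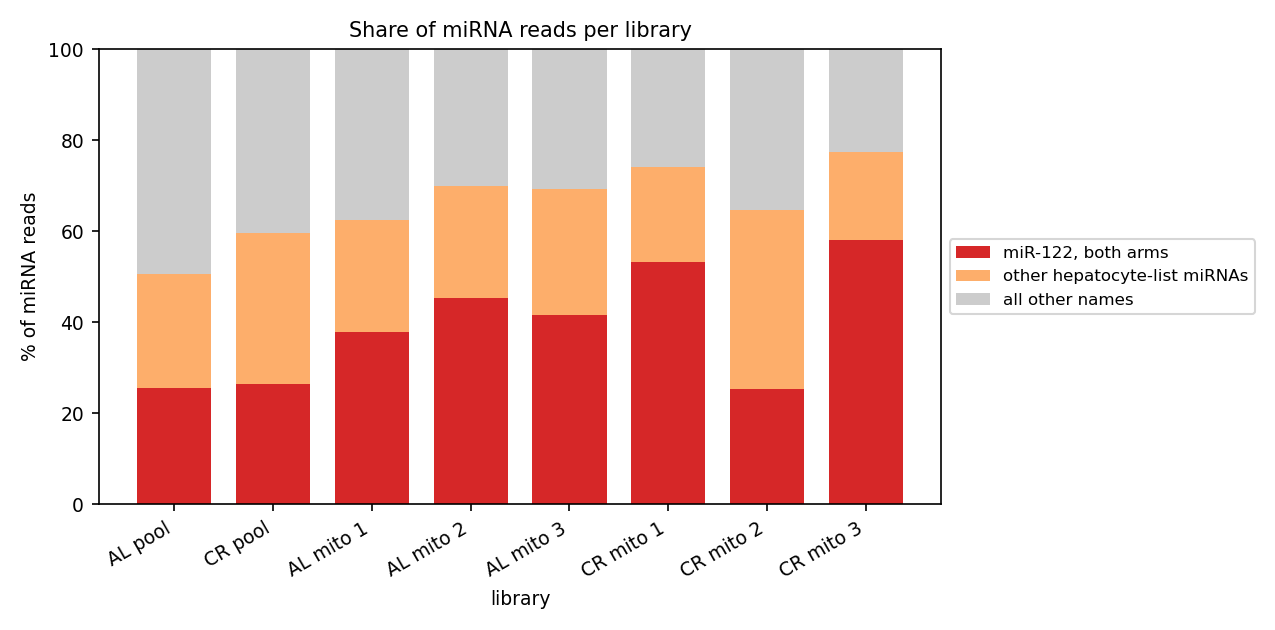
Share of miRNA reads in each library taken by both miR-122 strands, by the other 24 hepatocyte-list names and by all other names, in percent. CR mitochondrial replicate 2 has the lowest miR-122 share (25.2%) and the highest share of the other hepatocyte miRNAs (39.5%). Shares within a library compete. Of the reads without miR-122, the other hepatocyte miRNAs took 52.8% there, against 33.8% to 47.4% in the other libraries.

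How miR-122-5p varied with other abundant miRNAs depended on the scale. Over the 6 mitochondrial libraries, Pearson's r of log2(RPM + 1) with miR-122-5p was below 0 for 83 of 105 tested miRNAs with a mean of at least 100 RPM, on a scale where miR-122-5p itself sets part of every value. The highest were miR-22-3p (r = 0.63), miR-29b-3p (0.60), which targets collagens, miR-193a-3p (0.59), miR-15a-5p (0.49) and miR-7a-5p (0.43). Scaled to the other reads, r was above 0 for 74 of the 105, and the first 4 had 0.86, 0.85, 0.86 and 0.82. Over all 8 libraries miR-652-3p took the place of miR-7a-5p (r = 0.73), and without CR mitochondrial replicate 2 the r of these 5 lay between 0.79 (miR-652-3p) and 0.97 (miR-193a-3p).

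For the passenger strand the order also depended on the scale. On the deposited scale, over the 6 mitochondrial libraries miR-122-3p was closest to let-7f-5p (r = 0.93), let-7g-5p (0.91), miR-455-3p (0.91), let-7e-5p (0.89) and miR-374b-5p (0.86), and over all 8 also to miR-374c-3p (0.92). The means of miR-374b-5p (137.4 RPM) and miR-374c-3p (137.0 RPM) were nearly equal, and whether these names share reads was not tested. Scaled to the other reads, the first 5 named had r of 0.72, 0.79, 0.65, 0.60 and 0.38 over the 6 libraries, and places 13, 6, 18, 22 and 44 of 105. The r of its own guide strand with it was -0.49 over the 6 and -0.72 over the 8 libraries on the deposited scale, and 0.51 and 0.30 scaled to the other reads. These values describe 6 or 8 libraries that share groups and scale, and they carry no test.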

How the data were processed

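Small RNA libraries were sequenced with standard Illumina preparation, per the labels' protocols, and mapped with Bowtie to mm9, per the submitters' processing notes. How names, mismatches, multiple hits and strand were handled is not given in the sources used here. The deposited values are RPM, reads per 1000000 listed miRNA reads (columns named tpm), and a name missing from a table was set to 0. Every value was a whole multiple of its library's smallest (100%, within 0.01 read), which gave the reads.

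The design named edgeR for counts and limma-trend for normalized values, so limma-trend was used on log2(RPM + 1) for names that reached 1 RPM in 3 or more libraries of the fit, p-values being Benjamini-Hochberg adjusted and called under 0.05 (limma 3.58.1, R 4.3.3). Arm ratios were fitted likewise over hairpin names with both arms tested, with the variance trend on the mean level of the arms. edgeR 4.0.16 and DESeq2 1.42.0 ran on the recovered reads as alternatives, and the fits were tested on simulated data in which only names below 1% of the reads changed. On the RPM scale a change in a dominant miRNA such as miR-122-5p moves all others, and the alternative scalings were run for that reason. Exact permutation tests and intervals used scipy 1.17.1 (Python 3.11.15). The strands, lists and tests were chosen with earlier results of these data known. Named miRNAs followed a rule: both strands, the 5 other most abundant miRNAs, the 5 most alike in pattern, hepatocyte-list names with a mean of at least 100 RPM and the 3 hairpins on either side of miR-122 by arm ratio.

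Marker lists with sums not given elsewhere were those of neurons (5.83 to 14.6 RPM), muscle (17.5 to 161 RPM), erythroid cells (54.7 to 98.3 RPM) and bile duct (300.5 to 992 RPM).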

Additional observations from a re-analysis of the deposited data

How the results depend on the processing

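Over the alternatives run, neither strand passed the threshold with diet in mitochondria, nor did miR-122-3p against whole liver (log2 fold change -0.56 to -0.04 over 17 alternatives). The diet sign of miR-122-3p turned positive at 0.075 with TMM factors, 0.10 with DESeq2 size factors, 0.0053 scaled to the other reads, 0.036 in edgeR and 0.073 in DESeq2, and leaving out single libraries gave -0.37 to 0.0023. For miR-122-5p leaving out single libraries gave -0.18 to 0.42 with diet. Against whole liver miR-122-5p stayed positive and passed scaled to the other reads (1.12), in edgeR (1.21) and in DESeq2 (1.09), and it ranged from 0.60 to 0.88 without single libraries, of which only the fit without CR mitochondrial replicate 2 passed. The interaction of miR-122-5p was 0.026 with TMM factors, 0.071 with DESeq2 size factors, 0.12 scaled to the other reads, 0.31 in edgeR and 0.22 in DESeq2, and -0.23 to 0.38 without single libraries. That of miR-122-3p was 0.021 scaled to the other reads and 0.038 in edgeR, and -0.34 to 0.035 without single libraries. None passed, and with no filter, where names at 0 in most libraries enter, 129 miRNAs passed the interaction. The arm ratio against whole liver passed with 5 RPM added (1.19, adjusted p = 0.0499 by limma) and with at least 10 RPM (1.19 over 53 hairpins), but not with 0.1 RPM added (adjusted p = 0.0890) or no filter (adjusted p = 0.123), and ranged from 1.04 to 1.41 without single libraries, pools included. With diet it ranged from -0.14 to 0.64. The share difference ranged from -2.38 to 14.1 points and the log2 ratio to other hepatocyte miRNAs from -0.34 to 0.77. The 2 miRNAs called with diet became 10 with no filter, 8 with at least 10 RPM, 5 with TMM or DESeq2 size factors, 4 scaled to the other reads, 7 in edgeR and 11 in DESeq2, and 0 to 6 without single libraries. The 134 called against whole liver became 65 without the AL pool and 58 without the CR pool, alternatives chosen after seeing the data, as were the arm order by fraction and the values of miR-802-5p, the hepatocyte list, the spread and the correlations without single libraries, with 2 pools reduced to 1, and 140 was the highest count without a single library. Beyond these constructions the cause was not tested. The replicate numbers deviated together with r of 0.356, 0.086 and 0.103, and not every library was closest to its own number. With a replicate block 3 miRNAs passed with diet, and the adjusted p was 0.985 for miR-122-5p and 0.814 for miR-122-3p by limma.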
